A study of Mus musculus with 17 samples.

Results

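Histone cluster genes encode the linker histone H1 and the core histones H2A, H2B, H3 and H4 from clusters of short genes, under their older names Hist1h to Hist4h. They were taken as every gene of the count table whose symbol begins with one of those names once the Ensembl identifiers had been matched to GENCODE M21. The rule gave 68 genes of 48820 in the table. Among them were 6 H1, 20 H2A, 17 H2B, 12 H3 and 13 H4 genes, of which 54 lie on mouse chromosome 13, 10 on chromosome 3, 3 on chromosome 11 and 1 on chromosome 6. The annotation holds 70 such genes, and Hist1h2bh and Hist1h2bm were not analysed here.

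Core histones form the spool on which DNA is wound, and H1 binds the DNA between spools. Most cluster genes are replication-dependent: their transcription is activated by NPAT and its partners when DNA is copied. Their messages end in a conserved stem-loop bound by SLBP instead of a poly(A) tail. Some, Hist1h1c and Hist1h2bc among them, are known also to give polyadenylated messages, as variant histone genes such as H3f3b and H2afz always do. A library primed with oligo(dT) is therefore a partial view of this family, and low counts here are no measure of histone synthesis.

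The 17 RNA-seq libraries were made from GFP-positive epidermal cells of C57BL/6 mice aged 3 months, 1000 cells each, with the protocol of Picelli and colleagues according to the labels, a full-length method known to prime with oligo(dT). Every mouse carried EGFP-CreERT2 at 1 of 3 stem cell loci (Lrig1, Lgr6 or Lgr5) and had received 4-OHT, the active form of tamoxifen, so controls shared the allele, the recombinase and the drug. Controls were Pelo fl/+ (labelled WT, so heterozygous for the floxed allele) and mutants Pelo fl/fl (labelled Pelo -/-). Pelo encodes a ribosome rescue factor. There were 2 libraries of WT Lrig1 and 3 each of Pelo -/- Lrig1, WT Lgr6, Pelo -/- Lgr6, WT Lgr5 and Pelo -/- Lgr5. GFP marks cells by which of the loci is active, the cells of a sort may be mixed, and the labels do not say whether replicates came from separate mice, so p-values measure only the spread between these samples.

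Total counts ran from 9647507 to 28098841, with the 6 Lgr5 libraries at 17219054 or less and the 11 others at 13333497 or more. Levels are given as CPM, counts scaled to a common library size with TMM factors. Keratinocyte markers (8 genes) were above 0 in every library and summed to 19091 to 32656 CPM in the Lrig1 and Lgr6 libraries and to 6775 to 16044 in the Lgr5 libraries. Pelo, the targeted gene, had 3.82, 0.483 and 0.857 CPM in the Lrig1 mutants against 6.05 and 3.72 in their controls. It was not lower under the mutant label elsewhere: the Lgr6 mutants had 3.10 to 4.94 CPM against 2.02 to 5.39, and the Lgr5 mutants 11.8 to 23.6 against 5.90 to 17.4. The labels do not say which exons are floxed, so Pelo counts may not check the deletion, and WT and Pelo -/- below name only the label of a library.

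The stem-loop sequence is shown first because it is what separates these messages from ordinary ones. A 16-base pattern for the histone 3′ stem-loop was searched in the GENCODE M21 transcripts of all 21877 protein-coding genes. It was found on the sense strand in 53 genes, 0.242% of them, and 44 of those were among the 68 cluster genes; on the opposite strand 1 gene held it. Below are those of 6 genes on which later results turn, GRCm38 positions, with the stem-loop in capitals and 5 bases on each side in lower case.
Hist1h1c, chr13:23739512-23739527 (+ strand): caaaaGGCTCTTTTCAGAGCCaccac
Hist1h3e, chr13:23561903-23561918 (- strand): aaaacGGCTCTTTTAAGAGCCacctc
Hist1h3f, chr13:23544932-23544947 (+ strand): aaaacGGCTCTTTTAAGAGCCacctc
Hist1h4c, chr13:23698089-23698104 (- strand): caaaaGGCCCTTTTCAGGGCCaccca
Hist1h4i, chr13:22040966-22040981 (- strand): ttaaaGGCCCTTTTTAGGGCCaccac
Hist2h4, chr3:96262939-96262954 (- strand): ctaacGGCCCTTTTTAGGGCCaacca

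The most frequent of 8 forms was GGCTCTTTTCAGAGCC, as in Hist1h1c, held by 24 genes. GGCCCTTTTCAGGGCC followed with 7, all of them H4 genes, and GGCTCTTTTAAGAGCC with 6. Hist1h3e and Hist1h3f carried the same stem-loop with the same flanks. In Hist1h1c the loop lay 24 bases after the stop codon and the transcript model ran on for another 840 bases. For the 24 genes in which no stem-loop was found, no match says only that these letters are not in the models given.

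Histone cluster genes gave few counts. The 68 genes together had 21481 counts over 17 libraries, between 681 and 2200 a library (median 1150). Of the 68, 6 were listed at 0 in every library, 24 totalled 1 to 50 counts, and 7 totalled over 500. Only 6 had a count in all 17 libraries. The filter on low counts, which asks for about 10 counts in a group-sized number of libraries, was passed by 38 genes, and 30 were not tested. Hist1h1c averaged 26.1 CPM over all libraries and Hist1h2bc 12.0, and no other cluster gene reached 5 CPM.

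**Figure D1:**
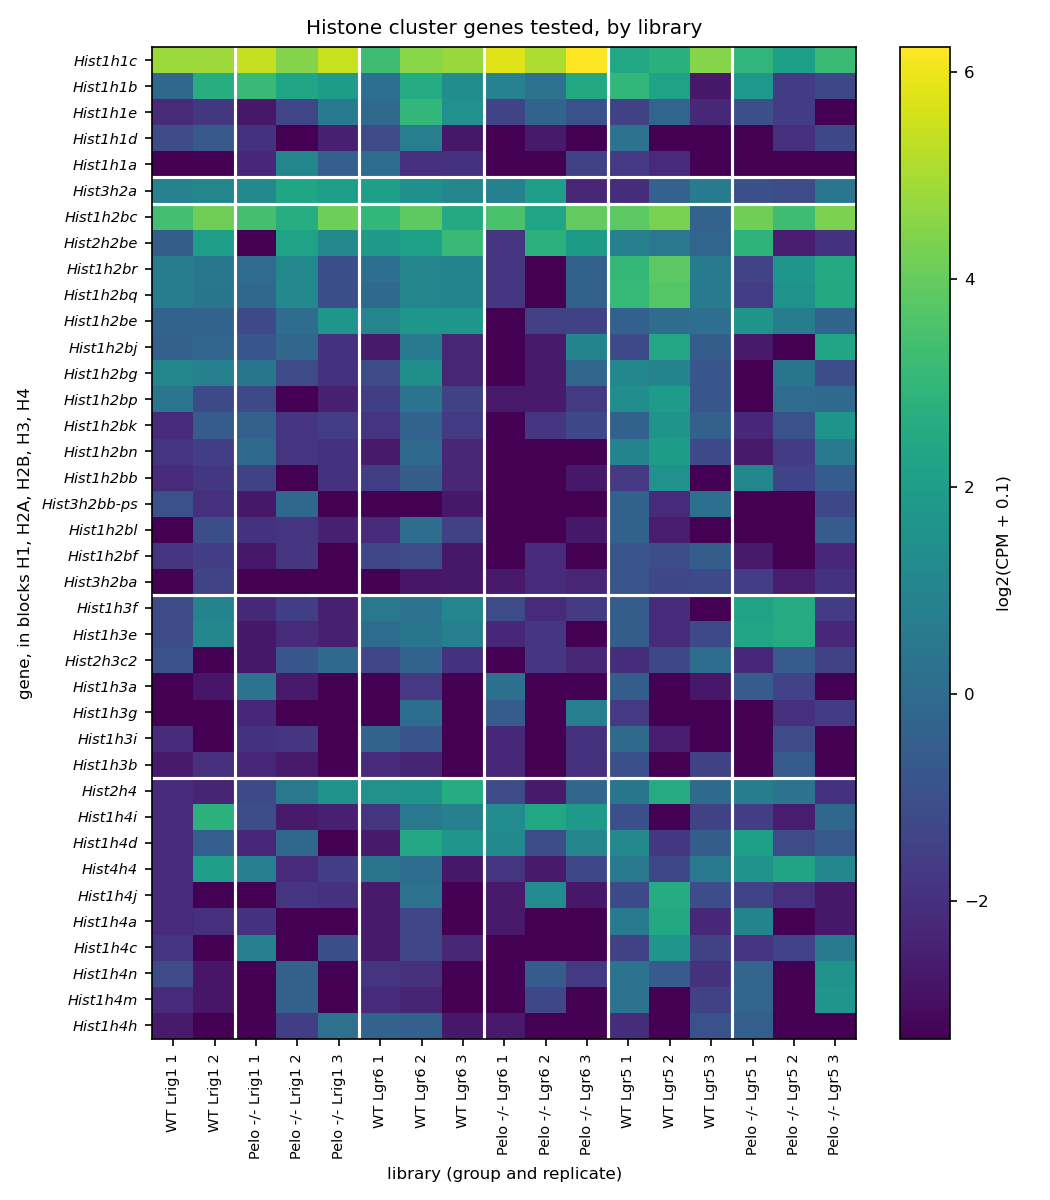
Level of each of the 38 tested histone cluster genes (rows, in blocks by histone class, highest mean first) in each of the 17 libraries (columns, in blocks by group), as log2(CPM + 0.1). Hist1h1c and Hist1h2bc are the rows that stay bright, except Hist1h2bc in WT Lgr5 replicate 3 (0.711 CPM). Most other genes are high in few libraries and near 0 in the next.

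H1 genes took 43.1% of all cluster gene counts and H2B genes 36.1%, followed by H4 with 12.0%, H3 with 4.77% and H2A with 4.10%. Most of the H1 share was Hist1h1c, with 7748 counts, ahead of Hist1h1b with 1019. Of the 20 H2A genes, a single one, Hist3h2a with 579 counts, was tested. Every one of the 20 H2A genes shares exon bases with another annotated gene on the opposite strand, against 1 each of the H2B, H3 and H4 genes and no H1 gene. Whether the counting used strand is not given, so reads of such a pair may have been set aside or assigned to either gene. Of the 6 genes listed at 0, Hist2h2aa1, Hist2h2aa2, Hist2h2bb, Hist2h3b and Hist2h3c1 had every exon base shared with another gene and Hist2h2ab had 68.2%, so their 0 is not read as absence, and the part of the counting in it was not tested.

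Variant histone genes were measured beside them, in level per length. Per kilobase of exon, H3f3b, a source of the replacement histone H3.3, averaged 447 CPM and H2afz, the gene of H2A.Z, 221 CPM. Hist1h1c stood at 16.7 CPM per kilobase and Hist1h2bc at 10.4, and 5 of 11 variant genes were above Hist1h1c. Summed over the list, the 11 variant genes ran from 542 to 4029 CPM a library, and the 68 cluster genes from 41.8 to 117 CPM.

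Within the family, the median level differed by the kind of gene model. The 5 genes with a spliced model, Hist1h2bc, Hist1h2bq, Hist1h2br and Hist1h2be among them, had a median of 1.19 CPM per kilobase and 25.9% of the counts. Hist1h2bc alone gave 3509 of these 5559 counts. In 21 genes the model runs more than 100 bases past the stem-loop, with a median of 0.592 CPM per kilobase and 55.8% of the counts. Of these 11984 counts 7748 were of Hist1h1c. The 21 with a model that ends near the stem-loop had a median of 0.397 and 6.70% of the counts, and the 21 unspliced models in which no stem-loop was found 0.224 and 11.6%. Most H2A genes, which share exon bases with genes on the opposite strand, fall in these last kinds, and none has a spliced model. Their part in the order of the medians was not tested. A poly(A) signal (AATAAA or ATTAAA) stood in the last 40 bases of a model in 17 genes, whose median was 0.933 CPM per kilobase, against 0.323 in the other 51. These are descriptions across genes, which share sequence and libraries, and Hist1h1b, at 4.63 CPM per kilobase with neither feature in its model, shows how far single genes depart from it.

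**Figure D2:**
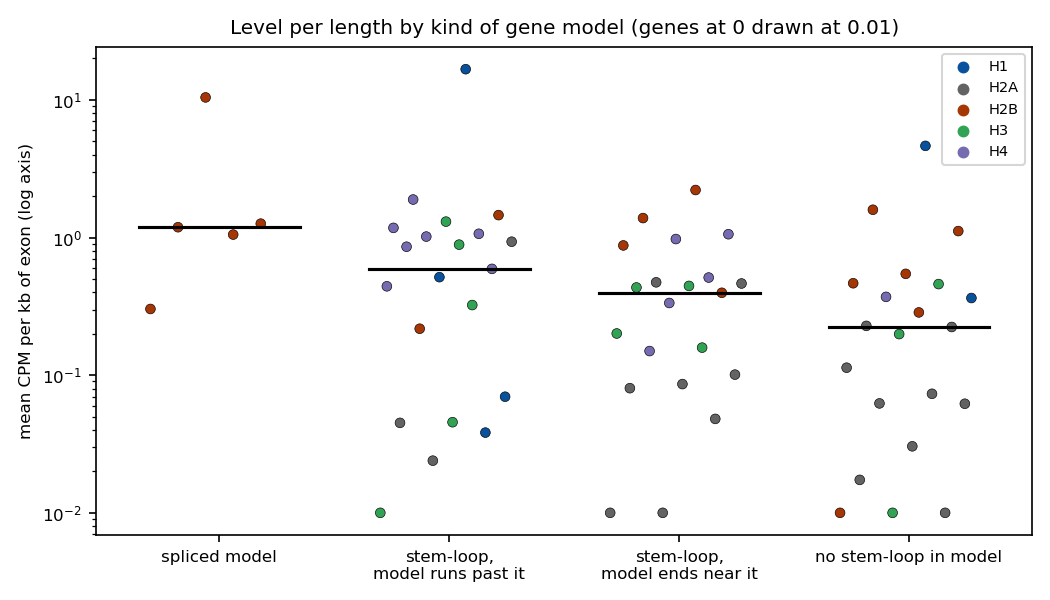
Mean CPM per kilobase of exon over all 17 libraries (log axis) for each of the 68 histone cluster genes, in 4 kinds of gene model, coloured by histone class, with the median of each kind as a bar. The medians step down from 1.19 to 0.592, 0.397 and 0.224, with wide overlap between the kinds.

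Some counts belong to pairs of genes that share sequence to different degrees, named here after their values were seen. Hist1h2bq and Hist1h2br share 97.3% and 88.7% of their 50-base words and had 714 and 738 counts, equal in 9 of 17 libraries. Hist1h2ao and Hist1h2ap had 70 and 69 counts, equal in 16 libraries. Hist1h3e and Hist1h3f share less, 63.15% and 41.01% of their words, and had 312 and 320 counts, equal in 5 libraries. There were 116 and 133 counts of Hist1h4m and Hist1h4n. In all, 34 of the 68 genes have at least 50% of their 50-base words in another annotated gene, so values of single members of a pair are uncertain and calls on both are not 2 findings. Hist1h1e and Hist1h2be overlap by 496 exon bases and are uncertain in the same way.

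The summed level of the family overlapped between groups on the TMM scale. The mean was 69.3 ± 21.1 CPM (SD, n = 2) in WT Lrig1 and 74.4 ± 13.4 (n = 3) in Pelo -/- Lrig1. It was 71.7 ± 27.0 in WT Lgr6, 86.1 ± 28.1 in Pelo -/- Lgr6, 74.4 ± 31.8 in WT Lgr5 and 61.7 ± 11.7 in Pelo -/- Lgr5 (n = 3 each). These ranges overlap between all 6 groups. Relative to total counts alone, without TMM factors, the WT Lgr5 libraries ran from 79.3 to 146 CPM, with no overlap with WT Lrig1 at 41.9 to 64.9. They overlapped every other group: WT Lgr6 (37.5 to 90.9), Pelo -/- Lrig1 (51.9 to 81.4), Pelo -/- Lgr6 (53.9 to 101) and Pelo -/- Lgr5 (64.8 to 110). The share of Hist1h1c varied more: it gave 53.5% to 68.7% of the cluster gene counts in Pelo -/- Lgr6, 37.6% to 53.2% in Pelo -/- Lrig1 and 8.81% to 13.1% in Pelo -/- Lgr5. It gave 34.0% to 51.7% in WT Lrig1 and 21.6% to 37.4% in WT Lgr6. In WT Lgr5 it gave 6.86%, 6.26% and 53.5%, replicate 3 standing apart. Without Hist1h1c, the sum was 31.6 ± 8.49 CPM in Pelo -/- Lgr6 and 54.7 ± 9.26 in Pelo -/- Lgr5. The other groups had 40.9 ± 20.7 (WT Lrig1), 38.4 ± 2.38 (Pelo -/- Lrig1), 51.7 ± 20.9 (WT Lgr6) and 63.0 ± 40.2 (WT Lgr5). WT Lgr5, at 19.5 to 98.8, spanned the means of all groups. In bulk libraries, fewer cells with a message and less of it in each cell cannot be told apart.

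**Figure D3:**
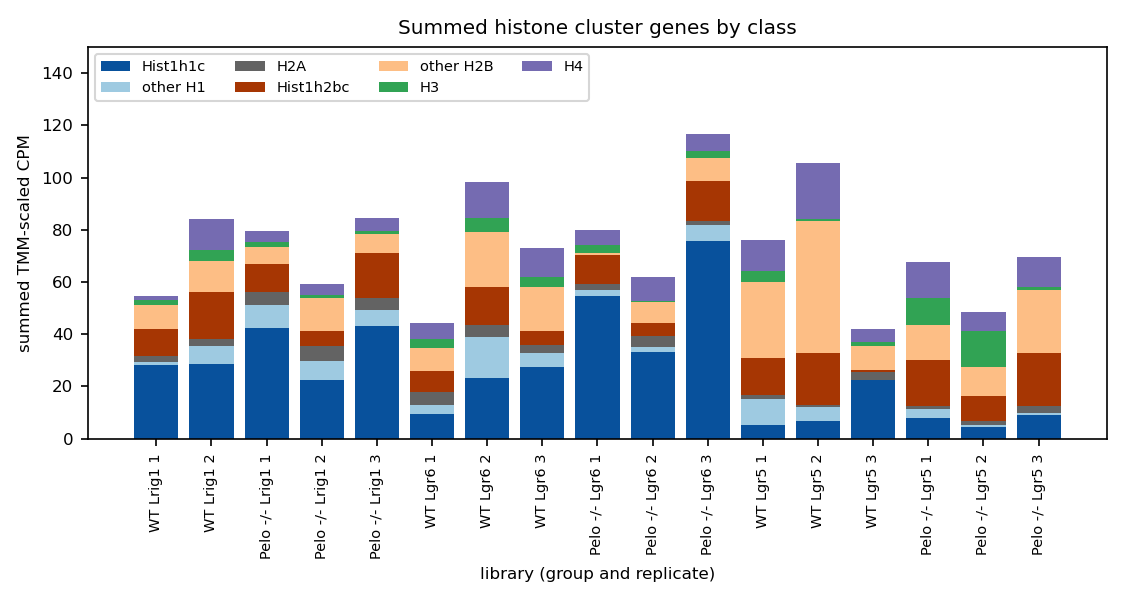
Summed CPM of the histone cluster genes in each library, stacked as Hist1h1c, other H1, H2A, Hist1h2bc, other H2B, H3 and H4. Totals overlap between groups, while the Hist1h1c part spans 22.3 to 75.6 CPM in the Pelo -/- Lrig1 and Pelo -/- Lgr6 libraries and 4.25 to 9.07 in Pelo -/- Lgr5.

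Hist1h1c, also named H1f2, encodes a linker histone expressed in many somatic tissues (chr13:23738808-23740367, + strand, GRCm38). It had at least 60 counts in every library. The Lrig1 libraries held 28.1 and 28.7 CPM with the WT label, beside 42.3, 22.3 and 43.3 CPM with the Pelo -/- label. The Lgr6 libraries held 9.54, 23.1 and 27.3 CPM, beside 54.8, 33.1 and 75.6 CPM in the mutants. The Lgr5 libraries held 5.21, 6.60 and 22.4 CPM, beside 7.69, 4.25 and 9.07 CPM in the mutants. The 3 Pelo -/- Lgr5 libraries lay below every Lrig1 and Lgr6 library. By group mean the order ran from Pelo -/- Lgr6 (54.5 ± 21.3) through Pelo -/- Lrig1 (36.0 ± 11.9), WT Lrig1 (28.4 ± 0.401), WT Lgr6 (20.0 ± 9.29) and WT Lgr5 (11.4 ± 9.53) to Pelo -/- Lgr5 (7.0 ± 2.48). Each neighbouring pair in this order overlaps within its SDs.

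**Figure D4:**
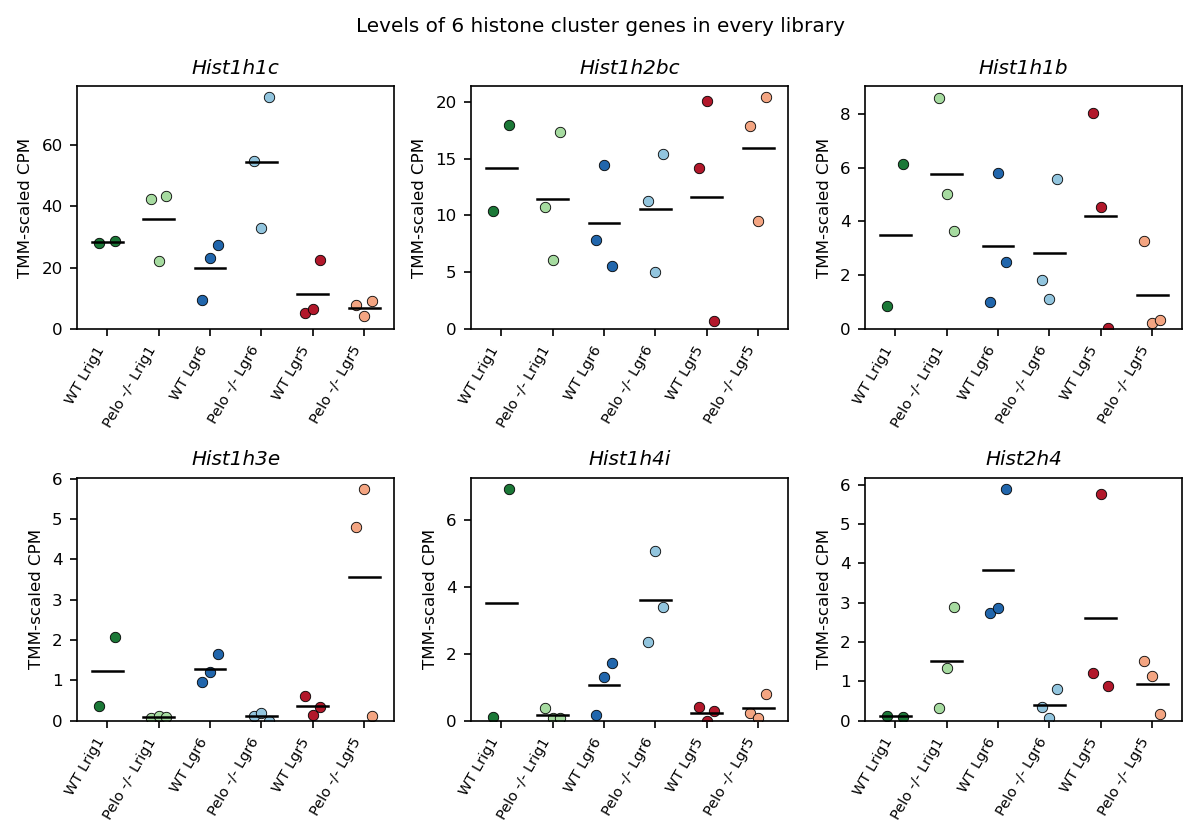
TMM-scaled CPM of 6 histone cluster genes in every library (points) by group, with the group mean as a bar and an axis from 0 in each panel. Hist1h1c has its lowest group mean in Pelo -/- Lgr5 (4.25 to 9.07 CPM), where WT Lgr5 replicates 1 and 2 (5.21 and 6.60) also lie. Hist1h2bc overlaps between all groups, and the H3 and H4 genes differ widely between libraries of a group.

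Among Pelo -/- libraries, Lrig1 and Lgr6 cells were each compared with Lgr5 cells, which serve both comparisons. Hist1h1c was higher in both: by 2.36 ± 0.57 (log2 fold change ± SE; adjusted p = 0.00972, edgeR) in Lrig1 and by 2.96 ± 0.59 (adjusted p = 0.00128, edgeR) in Lgr6, with no overlap between groups. Without Pelo -/- Lgr5 replicate 2 the Lrig1 value was 2.10 (adjusted p = 0.0586, edgeR), while the Lgr6 call held with any 1 library left out. In Pelo -/- Lrig1 against Pelo -/- Lgr5, 4 of the 38 tested cluster genes were called at an adjusted p under 0.05, 2 higher and 2 lower, or 10.5%, beside 7.85% of all 30405 genes tested. In Pelo -/- Lgr6 against Pelo -/- Lgr5 it was 5, 1 higher and 4 lower, or 13.2%, beside 9.95%. Both of these shares are near the background. At an unadjusted p under 0.05 there were 6 and 13 cluster genes of 38, beside 23.3% and 24.6% of all genes. DESeq2 called 4 and 12 of 38, beside 15.1% and 17%. By these last 2 counts the share was below that of all genes in Lrig1 and above it in Lgr6, a difference that was not tested. The median log2 fold change of the tested cluster genes was -0.52 in the first, with -0.64 over all genes, and -1.45 in the second (-1.24 with genes at 0 in a group set to their bound), with -0.61 over all genes.

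The second H1 gene called was Hist1h1a, a linker histone gene known from a narrower range of tissues. It had 2, 33 and 8 counts in Pelo -/- Lrig1 and none in the 3 Pelo -/- Lgr5 libraries, at least 14.9-fold higher against a floor of 3 counts over the group (adjusted p = 0.0425, edgeR). Most of those counts came from 1 library, and the call was lost without Pelo -/- Lrig1 replicate 2 or 3, any 1 Pelo -/- Lgr5 library, or WT Lgr6 replicate 1 or 2 (adjusted p to 0.183, edgeR). It was also lost with RLE factors (adjusted p = 0.0509, edgeR). DESeq2 did not call Hist1h1a, and its 4 calls in this comparison shared 3 with edgeR. The other was Hist3h2a (2.38, adjusted p = 0.0491, DESeq2). Hist1h1b, the H1 gene next in level, had 8.61, 5.01 and 3.66 CPM in Pelo -/- Lrig1 and 3.29, 0.213 and 0.322 in Pelo -/- Lgr5, which do not overlap, and was not called (2.17 ± 1.22, adjusted p = 0.28, edgeR).

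Of the 7 tested H3 genes, 2 that share sequence were called lower in both comparisons. The other 5 were not called, with log2 fold changes from -1.52 to 0.53 in Lrig1 and from -1.62 to 2.58 in Lgr6. Hist1h3e (chr13:23561534-23562369, - strand) had 82, 81 and 2 counts in Pelo -/- Lgr5, 1, 2 and 1 in Pelo -/- Lrig1 and 2, 3 and 0 in Pelo -/- Lgr6. Pelo -/- Lgr5 replicates 1 and 2 were high and replicate 3 was as low as the other groups. The log2 fold change was -5.28 ± 1.36 in Lrig1 (adjusted p = 0.0148, edgeR) and -5.06 ± 1.33 in Lgr6 (adjusted p = 0.0143, edgeR). Its look-alike Hist1h3f (chr13:23544052-23545312, + strand), with 79, 81 and 4 counts in Pelo -/- Lgr5, moved with it, by -4.54 ± 1.31 (adjusted p = 0.0303, edgeR) and -3.90 ± 1.25 (adjusted p = 0.0476, edgeR). As the groups overlap and the pair shares sequence, these calls stand on 2 libraries. In Lrig1 both calls were lost without Pelo -/- Lgr5 replicate 2 or any 1 Pelo -/- Lrig1 library (adjusted p from 0.0503 to 0.126, edgeR). In Lgr6 that of Hist1h3e was lost without Pelo -/- Lgr6 replicate 1 or 3, and that of Hist1h3f held in 3 of 17 fits that each left out 1 library. In the WT Lgr5 libraries the pair had 9, 2 and 6 and 9, 2 and 0 counts.

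In Lgr6 against Lgr5, 2 more were called lower, both with no count in the 3 Pelo -/- Lgr6 libraries. Hist1h2bn, an H2B gene, had 1, 3 and 27 counts in Pelo -/- Lgr5, at least 10.8-fold lower in Lgr6 (adjusted p = 0.0318, edgeR). Hist1h4c, an H4 gene, had 3, 4 and 27 counts there, at least 11.8-fold lower (adjusted p = 0.0465, edgeR). In both, replicate 3 of Pelo -/- Lgr5 held most counts, and without it the adjusted p was 0.204 and 0.178 (edgeR). Both calls were also lost without any 1 Pelo -/- Lgr6 library, and that of Hist1h4c held in 8 of 17 such fits. The difference between Pelo -/- Lrig1 and Pelo -/- Lgr6 was itself tested, and 0 of 38 cluster genes were called, beside 0% of all genes (6 cluster genes at an unadjusted p under 0.05, beside 4.2%, and 0 by DESeq2, beside 0.207%).

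Hist1h2bc, an H2B gene with a spliced model (chr13:23684199-23692908, + strand), was not called. It had 17.9, 9.50 and 20.4 CPM in Pelo -/- Lgr5, 10.7, 6.09 and 17.4 in Pelo -/- Lrig1 and 11.2, 5.0 and 15.4 in Pelo -/- Lgr6. These overlap, with log2 fold changes of -0.48 ± 0.76 (adjusted p = 0.69, edgeR) and -0.60 ± 0.76 (adjusted p = 0.63, edgeR). WT Lgr5 replicate 3 was low, with 0.711 CPM beside 14.2 and 20.1 in the other WT Lgr5 libraries, and it was also the WT Lgr5 library in which Hist1h1c was high. Of all 17 libraries it had the fewest total counts (9647507) and the highest TMM factor (1.91).

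**Figure D5:**
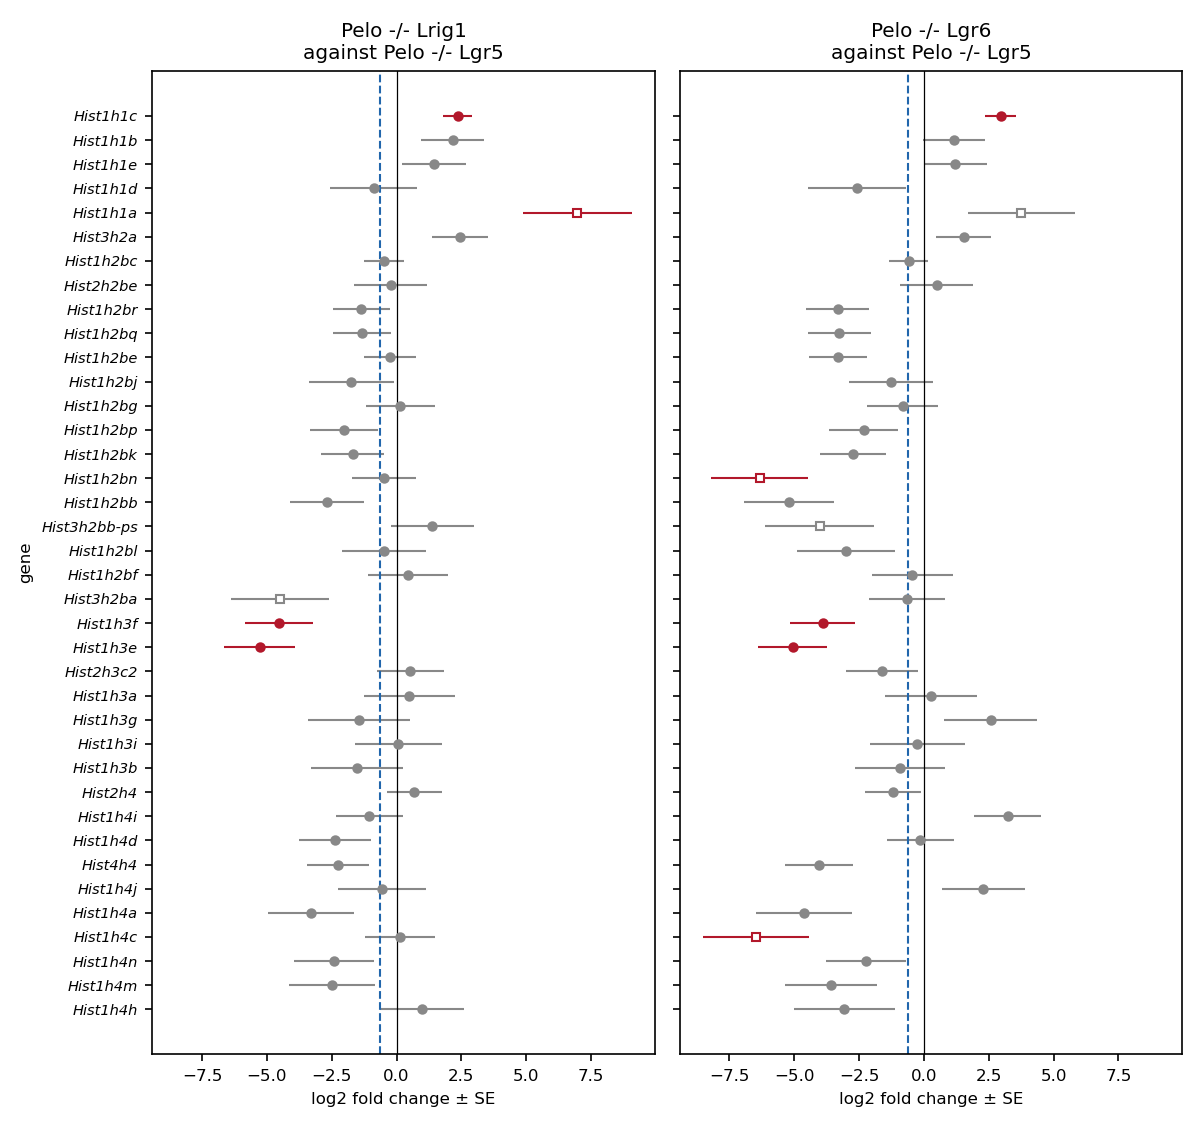
Log2 fold change with its SE (edgeR) of the 38 tested histone cluster genes in Pelo -/- Lrig1 (left) and Pelo -/- Lgr6 (right) against the same 3 Pelo -/- Lgr5 libraries, with called genes in red. Open squares mark genes with no count in 1 of the groups, whose fitted value is no bound, and the dashed line is the median over all genes tested (-0.64 and -0.61).

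Other measures moved with the Lgr5 libraries, among them the keratinocyte markers, of which 4 of 8 were called higher in each Lrig1 or Lgr6 group against Lgr5. Genes of S phase (22, of which 21 were tested) summed to 1067 to 1594 CPM in the 11 Lrig1 and Lgr6 libraries and to 202 to 1140 in the 6 Lgr5 libraries. Melanocyte markers (8) summed to 12.7 to 39.5 CPM against 64.1 to 334, with Mlana at 0 in every WT Lrig1 and Pelo -/- Lgr6 library and none of the 8 at 0 in an Lgr5 library. Fibroblast and endothelial markers (10) summed to 3.13 to 29.4 CPM against 44.4 to 77.0, and immune markers (9) to 47.8 to 482 against 4.29 to 16. Only part of each list was called. In each Lrig1 or Lgr6 group against Lgr5, 1 of the 10 (Col1a2) was called lower and 2 of the 9 (Cd74 and H2-Aa) higher. Of the 8 melanocyte markers, 1 was called lower in each WT comparison and 4 in each Pelo -/- comparison. Median log2 fold changes were -2.55 to -1.24 for fibroblast and endothelial markers and -4.64 to -1.94 for melanocyte markers. Over all genes tested they were -0.99 to -0.49. For the immune markers the median was -0.46 in WT Lrig1 against WT Lgr5, and 0.64 to 1.45 in the other such comparisons. Olfactory receptor genes (1311), a group with no known role in these cells, summed to 34.8 to 181 CPM against 70.7 to 402, and TMM factors were 0.688 to 0.964 against 0.990 to 1.91. WT Lgr5 replicate 3 had the lowest keratinocyte (6775 CPM) and S phase (202 CPM) sums of all libraries and the highest olfactory receptor sum (402 CPM). Its melanocyte (106 CPM) and fibroblast and endothelial (55.1 CPM) sums lay within the range of the other Lgr5 libraries. The part of all these measures in the cluster gene results was not tested.

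In the WT libraries the same populations were compared. Of 38 cluster genes 0 were called in WT Lrig1 against WT Lgr5, beside 11.1% of all genes, and 0 in WT Lgr6 against WT Lgr5, beside 12.2%. At an unadjusted p under 0.05 these were 5 and 4 of 38, beside 28.6% and 23.8% of all genes. DESeq2 called 5 and 4 of 38, beside 24.3% and 20.6%. Each of these shares was below that of all genes. Hist1h1c had the same sign as in Pelo -/- cells, 1.32 ± 0.60 (adjusted p = 0.15, edgeR) in Lrig1 and 0.81 ± 0.55 (adjusted p = 0.38, edgeR) in Lgr6. Without WT Lgr5 replicate 3 the Lrig1 value was 2.27 (adjusted p = 0.0242, edgeR), and with a minimum mean of 5 CPM, which changes the scaling, the values were 0.20 in Lrig1 (adjusted p = 0.86, edgeR) and -0.33 in Lgr6. With RLE factors they were 0.89 and 0.27. WT Lrig1 against WT Lgr6 had 0 calls among cluster genes, beside 0% of all genes (3 at an unadjusted p under 0.05, beside 4.67%, and 1 by DESeq2, beside 0.171%).

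The gene nearest to a call was Hist2h4, an H4 gene on chromosome 3. It had 2 and 2 counts in WT Lrig1 and 18, 90 and 16 in WT Lgr5, with no overlap (-4.51 ± 1.49, adjusted p = 0.0501, edgeR). WT Lgr6 held 46, 57 and 114 counts, above WT Lrig1 as well (-5.06 ± 1.52 for WT Lrig1 against WT Lgr6, adjusted p = 1, edgeR). For Hist1h4i, 2 and 143 counts in WT Lrig1 against 6, 0 and 5 in WT Lgr5 gave 3.92 ± 1.41 (adjusted p = 0.0728, edgeR), and without the second WT Lrig1 library the sign turned, to -0.92. Hist1h1e had 15, 157 and 54 counts in WT Lgr6 and 4, 12 and 2 in WT Lgr5 (3.32 ± 1.23, adjusted p = 0.0850, edgeR). Hist1h4a had 7 counts in all in WT Lgr6 and 108 in WT Lgr5, with overlap (adjusted p = 0.10, edgeR), and Hist1h4j had 5, 93 and 7 counts in WT Lgr5 and 2 and 0 in WT Lrig1.

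Within a population, Pelo -/- was compared with WT. No cluster gene of 38 was called in Lrig1 (beside 0% of all genes), Lgr6 (0%) or Lgr5 (0.0197%). At an unadjusted p under 0.05 there were 6, 13 and 3 cluster genes of 38, beside 3.64%, 3.88% and 6.25% of all genes. The share was above that of all genes in Lrig1 and more so in Lgr6, and near it in Lgr5. Cluster genes share sequence and libraries, and this excess was not tested. DESeq2 called 0, 1 and 0, beside 0.109%, 0.0592% and 0.622%. The median log2 fold change of the tested cluster genes was -0.02 in Lrig1 (-0.02 over all genes), -1.92 in Lgr6 (-1.86 with genes at 0 in a group set to their bound; -0.27) and -0.44 in Lgr5 (-0.14). Hist1h1c had 0.34 ± 0.61 in Lrig1 (adjusted p = 1), 1.45 ± 0.55 in Lgr6 (adjusted p = 1) and -0.70 ± 0.55 in Lgr5 (adjusted p = 0.99), all by edgeR. In Lgr6 the 3 Pelo -/- libraries lay above the 3 WT libraries. In Lgr5 the sign rests on WT replicate 3, and without it the value was 0.21.

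In Lgr6 the smallest p belonged to Hist1h2be, the H2B gene that overlaps Hist1h1e. It had 33, 65 and 62 counts in WT and 0, 4 and 5 in Pelo -/- (-3.98 ± 1.14, adjusted p = 1 by edgeR and 0.0386 by DESeq2). For Hist1h3e the WT libraries held 16, 24 and 32 counts and the Pelo -/- libraries 2, 3 and 0 (-3.59 ± 1.27, adjusted p = 1, edgeR). Hist1h2bn had 1, 17 and 2 counts in WT Lgr6 and none in Pelo -/- Lgr6. The groups do not overlap in any of the 3 genes, and none was called over all genes by edgeR. The 3 were picked for their small p, and the share of all tested genes without overlap was not counted.

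In Lrig1, Hist1h3e had 6 and 43 counts in WT and 1, 2 and 1 in Pelo -/- (-3.75 ± 1.36, adjusted p = 1, edgeR). Hist1h1a had none in WT and 2, 33 and 8 in Pelo -/-, at least 11.2-fold higher (adjusted p = 1, edgeR). Hist1h4i had 7, 1 and 1 counts in Pelo -/- against 2 and 143 in WT, a value whose sign turns, from -4.25 to 0.67, without the second WT library.

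In Lgr5 the fitted values of the pair Hist1h3e and Hist1h3f had the opposite sign. Hist1h3e had 9, 2 and 6 counts in WT and 82, 81 and 2 in Pelo -/- (3.30 ± 1.2, adjusted p = 0.62, edgeR), and Hist1h3f was not called either (3.83 ± 1.26, adjusted p = 0.54, edgeR). Hist1h4j had 5, 93 and 7 counts in WT and 5, 2 and 1 in Pelo -/- (-3.72 ± 1.66, adjusted p = 0.76, edgeR). The differences of the Pelo -/- effect between populations were tested as interactions. No cluster gene was called by edgeR in Lrig1 minus Lgr5, Lgr6 minus Lgr5 or Lrig1 minus Lgr6, each beside 0% of all genes. At an unadjusted p under 0.05 there were 5, 6 and 9 of 38, beside 5.31%, 4.78% and 4.2% of all genes. These shares were above those of all genes, an excess that was not tested. DESeq2 called 2, 2 and 1, beside 0.204%, 0.184% and 0.181%, namely Hist1h3e and Hist1h3f in the first pair of differences and Hist2h4 in the last. For Hist1h3e the edgeR interaction was -7.05 ± 1.81 for Lrig1 minus Lgr5 (adjusted p = 0.64) and -6.89 ± 1.75 for Lgr6 minus Lgr5 (adjusted p = 0.57).

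Genes that serve histone messages were counted from lists. Factors of histone gene transcription (8 tested, such as Npat and Hinfp), of stem-loop processing (10, such as Slbp and Lsm10) and of histone message decay (5, such as Eri1) had 0 called in each of the 12 comparisons. Slbp, which binds the stem-loop, was present throughout, between 33.8 and 138 CPM. Of 11 variant genes, 2 were higher in Pelo -/- Lrig1 and 3 in Pelo -/- Lgr6 against Pelo -/- Lgr5, with none lower, where 7.85% and 9.95% of all genes were called in either direction. H3f3b was higher by 1.29 ± 0.37 (adjusted p = 0.0270, edgeR) and 1.80 ± 0.37 (adjusted p = 0.00187, edgeR), and H1f0, the replacement linker histone, by 1.59 ± 0.39 in Lgr6 (adjusted p = 0.00754, edgeR). Of 18 histone chaperones 2 and 3 were higher, led by Asf1b, which hands H3 and H4 to new DNA, at 5.17 ± 0.73 and 5.53 ± 0.74 (adjusted p = 4.67e-05 and 1.70e-05, edgeR). Of 21 S phase genes 4 and 7 were higher and of 14 mitosis genes 0 and 2, beside the same shares of 7.85% and 9.95%. In WT Lrig1 and WT Lgr6 against WT Lgr5, 2 and 3 variants, 3 and 6 chaperones, 4 and 4 S phase genes and 0 and 1 mitosis genes were higher and none lower, where 11.1% and 12.2% of all genes were called. Both comparisons of a genotype share their Lgr5 libraries.

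The upstream sequences of Hist1h1c and Hist1h1a are given because edgeR called both H1 genes higher in Pelo -/- Lrig1 from very different levels. DESeq2 called only Hist1h1c of these. Promoters came from RefSeq (GRCm38.p6), 250 bases before to 50 after the start, and 59 of the 68 genes matched, with 60 promoters. On either strand, TATAAA was in 35 of the 60 beside 13.6% of all 32851 promoters, CCAAT in 51 beside 37.4%, and the H1 box AAACACA in 8 beside 7.18%. The 60 are not all separate sequences. Those of Hist1h2ag and Hist1h2bj overlap on opposite strands, and those of Hist1h2bq and Hist1h2br are identical, so some matches are counted more than once. Of the 6 H1 promoters 5 held the H1 box and 6 CCAAT. The 250 bases before the start are printed 5′ to 3′, with matches to these motifs in capitals.
Hist1h1c, chr13:23738557-23738806 (+ strand): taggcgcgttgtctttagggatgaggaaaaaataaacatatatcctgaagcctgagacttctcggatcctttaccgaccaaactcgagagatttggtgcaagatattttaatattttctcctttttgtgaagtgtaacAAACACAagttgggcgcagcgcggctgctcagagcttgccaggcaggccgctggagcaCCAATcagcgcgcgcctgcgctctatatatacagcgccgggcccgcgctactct
Hist1h1a, chr13:23763418-23763667 (+ strand): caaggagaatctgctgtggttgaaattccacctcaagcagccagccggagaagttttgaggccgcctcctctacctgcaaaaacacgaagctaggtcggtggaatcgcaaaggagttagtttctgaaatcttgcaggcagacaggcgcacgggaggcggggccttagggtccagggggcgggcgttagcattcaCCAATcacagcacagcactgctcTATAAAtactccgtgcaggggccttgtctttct

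The Hist1h1c sequence held the H1 box and CCAAT and no TATAAA. That of Hist1h1a held CCAAT and TATAAA, and the letters of the H1 box were not in this window. A match is a description of the sequence and not evidence of a bound factor.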

How the data were processed

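The authors deposited raw counts per gene, as whole numbers, and these entered the fit unchanged for 17 libraries. The submitters' processing notes name STAR, edgeR, GRCm38 and mm10. They do not name the counter, and how it used strand or shared reads is unknown here. Of 48820 identifiers 48144 matched GENCODE M21 (GRCm38), 40692 with their version. The genes and lists were chosen with earlier results of these data known.

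All libraries entered 1 edgeR 4.0.16 quasi-likelihood fit (R 4.3.3, limma 3.58.1) with robust dispersions, TMM scaling, 1 coefficient per group and filterByExpr (minimum count 10, minimum total 15), which left 30405 genes. Tests are two-sided, with Benjamini-Hochberg adjustment over all genes of a comparison, and calls are at 0.05. Each SE was taken from the log2 fold change and its F statistic. A group at 0 gives a bound from 3 counts over the group, for counting error only. Genes were named mainly from the called genes with the smallest p (at most 6 per direction), or else the 3 with the smallest p. The 2 highest genes of each class and up to 3 genes per list were also candidates. Not every such gene is named, with Hist2h2be and Hist3h2bb-ps among those left out. A seeded simulation of the fit put changes only into genes with a mean above 5 CPM. It says nothing about cluster genes below that level, and no result above rests on it. Alternatives were RLE factors, no filter, a minimum mean of 5 CPM, DESeq2 1.42.0, a replicate block and each library left out.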

Additional observations from a re-analysis of the deposited data

How the results depend on the processing

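Counts are of histone cluster genes called. DESeq2 called 1 in Pelo -/- against WT in Lgr6 (0 in Lrig1 and Lgr5), 5 in WT Lrig1 against WT Lgr5, 4 in WT Lgr6 against WT Lgr5, 1 in WT Lrig1 against WT Lgr6, 12 in Pelo -/- Lgr6 against Pelo -/- Lgr5, and 2, 2 and 1 in the interactions Lrig1 minus Lgr5, Lgr6 minus Lgr5 and Lrig1 minus Lgr6. Those 12 hold all 5 called by edgeR. In Pelo -/- Lrig1 against Pelo -/- Lgr5 DESeq2 called 4, and 3 of these were also called by edgeR. Hist3h2a was called in place of Hist1h1a. With no filter the counts were 2 in WT Lrig1 against WT Lgr5, 1 in WT Lgr6 against WT Lgr5 and 8 in Pelo -/- Lgr6 against Pelo -/- Lgr5. With RLE factors it was 1 in WT Lrig1 against WT Lgr5, namely Hist2h4, 3 in Pelo -/- Lrig1 against Pelo -/- Lgr5, where Hist1h1a was lost, and 7 in Pelo -/- Lgr6 against Pelo -/- Lgr5, which hold the 5 of TMM. A minimum mean of 5 CPM tested 2 cluster genes and called 1, Hist1h1c, in Pelo -/- Lrig1 and in Pelo -/- Lgr6 against Pelo -/- Lgr5, and turned Hist1h1c in WT Lgr6 against WT Lgr5 to -0.33. The median over all genes in Pelo -/- Lgr6 against Pelo -/- Lgr5 was -0.61 with TMM, -0.77 with RLE and -0.05 at that minimum.

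With a replicate block the counts were 1 in WT Lrig1 against WT Lgr5 (Hist1h1c, 1.84), 2 in Pelo -/- Lrig1 and 3 in Pelo -/- Lgr6 against Pelo -/- Lgr5. Lost with the block were Hist1h1a (adjusted p = 0.0664, edgeR) and Hist1h3f (0.0548) in Lrig1, and Hist1h3f (0.112) and Hist1h4c (0.0667) in Lgr6. Deviations of same-numbered libraries correlated between -0.10 and 0.24, so the numbers are not taken to pair them.

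With 1 library left out the counts ran from 1 to 6 in Pelo -/- Lgr6 against Pelo -/- Lgr5 (1 without Pelo -/- Lgr6 replicate 1 or 3), from 0 to 4 in Pelo -/- Lrig1 against Pelo -/- Lgr5 (0 without Pelo -/- Lgr5 replicate 2), from 0 to 1 in WT Lrig1 against WT Lgr5, and from 0 to 0 elsewhere. Hist1h1c was called against Pelo -/- Lgr5 in 17 of 17 such fits for Lgr6 (adjusted p from 0.000456 to 0.0125, edgeR) and 16 of 17 for Lrig1 (to 0.0586). Hist1h3e was called in 15 and 13 of 17. Signs turned for Hist1h4i without WT Lrig1 replicate 2, to 0.67 in Pelo -/- against WT in Lrig1 (range from -5.55 to 0.67) and -0.92 in WT Lrig1 against WT Lgr5 (from -0.92 to 5.07), and for Hist1h1c without WT Lgr5 replicate 3, to 0.21 in Pelo -/- against WT in Lgr5 (from -1.06 to 0.21). The cause of these changes was not tested. At these depths 30 of the 68 cluster genes did not pass the filter on low counts.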
